A study of Mus musculus with 6 samples.

Results

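The 4 Dicer-null clones of a mouse mesenchymal stem cell series, named 6.8 and 6.9 (line 6) and 12.2 and 12.4 (line 12), were set against each other, to describe how far clones that share a genotype and a starting animal differed in expression. They were chosen by their labelled genotype and make up 4 of the 6 samples, the other 2 being the Dicer-carrying clones 6 and 12. Each clone was measured once, on 1 Affymetrix exon array, so no spread within a clone exists. Sizes are therefore described, and 1 comparison, between lines, could be tested.

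Dicer is the enzyme that cuts microRNA precursors into mature microRNAs, the short RNAs that guide Argonaute proteins to messenger RNAs and lower their output. Mesenchymal stem cells are stromal cells of the marrow that can give rise to bone, fat and cartilage cells. A clonal line is grown from a single founder cell, so a state or a copy number that this cell carries is passed to the whole line.

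All 6 clones were derived from marrow of the hindlimb of a mouse with floxed Dicer alleles, and all were immortalised with a retrovirus carrying the SV40 large T antigen before cloning at low density. Clones 6 and 12 were labelled Dicer+/+. The 4 null clones, labelled Dicer-/-, were made by infecting cells with an adenovirus that encodes Cre and GFP, sorting GFP-positive cells and cloning again, and deletion was typed by PCR. The labels describe no Dicer-carrying clone that went through infection, sorting and recloning. All were undifferentiated. Clones 6.8 and 6.9 bear the number of clone 6, and clones 12.2 and 12.4 that of clone 12, which is what line means here.

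All values are log2 array values, and a difference of 1 log2 unit is a 2-fold difference. Where 4 values stand in a row they belong to 6.8 and 6.9, then 12.2 and 12.4, and the pair that follows belongs to the Dicer-carrying clones 6 and 12. Dicer1 itself read 4.66, 4.43, 4.47 and 4.64, with 4.48 and 4.83 in clones 6 and 12. These values lie together, but the value covers the whole transcript and not the deleted part, so they do not check the genotype labels.

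The array titled 6.9 carries a cell type label that names clone 6.8. The title was followed here. Its values were not those of the 6.8 array, and its differences from the other clones reached furthest on the low side. Differences from the mean of the other 3 clones were taken over the 4509 genes above log2 6 on all 4 null arrays. Their 5th and 95th percentiles were -1.17 and 0.87 in 6.9, against -0.56 and 0.61 in 6.8. They were -0.88 and 0.90 in 12.2 and -0.66 and 0.87 in 12.4. Results that rest on the 6.9 array are given below with and without it where its removal changed them.

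Of 18997 measured genes, 6368 passed log2 6 on at least 1 null array and are called expressed. Slc9a9 lay just inside this limit with a highest null value of 6.00, as against 5.999 for Dnajb4 just outside. A total of 713 genes passed it on 1 null array alone, and such genes had to be higher there. Stromal identity was checked against 15 measured markers, of which 10 were expressed. The type I collagen chain Col1a1 read 11.87, 11.73, 11.40 and 10.48, and the platelet-derived growth factor receptor Pdgfrb 9.47, 10.38, 8.08 and 10.22. Thy1, Nt5e, Cspg4, Mcam and Lepr stayed below 6 on every null array, with Thy1 at 2.74, 2.58, 2.67 and 2.57. No listed marker of chondrocytes, skeletal muscle, epithelium, blood cells or endothelium was expressed in any null clone, and the highest values in those lists were 5.36, 4.91, 5.15, 4.08 and 3.33.

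The null clones differed widely. The median range of an expressed gene over the 4 clones was 0.85 log2 units, 2562 genes (40.2%) had a range of at least 1 and 623 (9.78%) of at least 2. Clones of the same line were not the most alike. Clones 6.8 and 12.4 differed by at least 1 log2 unit at 541 genes and had the highest correlation across genes (Pearson's r = 0.904). Clones 6.8 and 6.9 differed at 919 genes (r = 0.883) and clones 12.2 and 12.4 at 1048 (r = 0.803). The pair furthest apart was 6.9 and 12.2, with 1542 genes (r = 0.785). These correlations are over 6368 genes that are not independent of each other, and all values share the array design and normalisation.

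A gene was said to stand apart in a clone when its value there lay at least 1 log2 unit above, or at least 1 below, each of the other 3 null clones. Clone 6.8 had 20 such genes above (0.314% of expressed genes) and 18 below (0.283%). Clone 6.9 had 103 above (1.62%) and 319 below (5.01%). Clone 12.2 had 169 above (2.65%) and 209 below (3.28%). Clone 12.4 had 166 above (2.61%) and 49 below (0.769%). Clone 6.8 thus had the fewest genes of its own, 6.9 stood out mainly by low values, 12.2 in both directions and 12.4 mainly by high values. Aldoc (a gap of 1.0004 in 6.8) and Jtb (0.97953 in 6.8) lay just inside and just outside the limit. A gap over fewer clones is easier to pass, and the 38 genes of 6.8 became 115 without 6.9, 114 without 12.2 and 121 without 12.4. The 422 of 6.9 became 640 and the 215 of 12.4 became 366 without 6.8. Without the 6.9 array, 12.2 had 509 and 12.4 had 321. In bulk RNA of a culture, fewer cells with a gene switched on and less RNA per cell cannot be told apart.

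**Figure D1:**
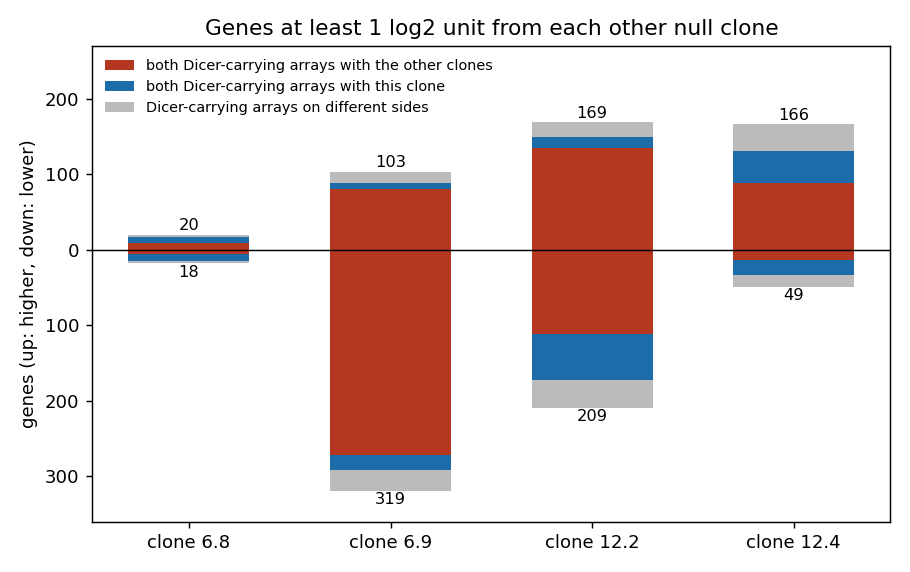
Number of genes at least 1 log2 unit above (upward bars) or below (downward bars) each other null clone, for each of the 4 clones, 1 array each. Colours show on which side of the midpoint both Dicer-carrying arrays lay; in clone 6.9, 272 of 319 low genes had both of them with the other clones.

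The Dicer-carrying arrays were used to place each difference. The side was judged from the midpoint between the clone and the mean of the other 3. When both arrays lay on the side of the other 3 clones, the value was taken as gained or lost in the clone itself. When both lay on the clone's side, it was called kept, which need not mean an unchanged level. Pxdn, for example, counts as kept in 6.8 at 6.56, with 3.05 and 4.28 in clones 6 and 12. In 6.9, 81 of 103 high genes were gained and 272 of 319 low genes were lost (85.3%). In 12.2, 135 of 169 high genes were gained, while 112 low genes were lost and 60 were kept, with both Dicer-carrying arrays on the low side. In 12.4, 88 high genes were gained and 43 kept, and of 49 low genes 13 were lost and 21 kept. In 6.8 the counts were 9 gained and 8 kept among the high genes, and 6 lost and 9 kept among the low genes. The high genes counted here include those that passed the expression limit on that clone's array alone and so had to be higher there. These were 11 of 20 in 6.8, 32 of 103 in 6.9, 86 of 169 in 12.2 and 75 of 166 in 12.4. No low gene can pass in that way. Over the 4509 genes above the limit on all 4 null arrays, 7, 45, 52 and 43 stood apart as high. As low, 3, 180, 57 and 15 did.

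Clone 12.2 had high values of chemokine, NF-kB and interferon-response genes and low values of bone, fat and Wnt pathway genes. Of 13 expressed genes for chemokines, cytokines and NF-kB feedback, 9 stood apart as high in 12.2 and 1 as low, with a median of 2.34 log2 units above the mean of the other clones, where the median over all expressed genes was 0.01. Of 14 expressed interferon-response genes, 9 stood apart as high and 0 as low, with a median of 2.02. A member that passed the expression limit on the 12.2 array alone had to be higher there. This held for 1 of the 13 (Lcn2) and for 7 of the 14 (Ifit3, Oas2, Irf7, Ddx58, Gbp2, Gbp3 and Rtp4), of which 1 and 6 stood apart. Without them 8 of 12 and 3 of 7 stood apart as high, with medians of 2.06 and 1.54, an alternative chosen after seeing the data. Under the alternatives chosen earlier, the medians of the full lists lay between 2.18 and 2.57 and between 1.73 and 2.32. Of 7 expressed antigen presentation genes, 0 stood apart in 12.2, with a median of 0.06.

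Cxcl5, a neutrophil-attracting chemokine, read 2.98, 3.05, 9.85 and 7.66, with 3.11 and 5.11 in clones 6 and 12. Ccl2, which attracts monocytes, read 5.88, 4.91, 9.34 and 7.03, with 4.92 and 3.68. Both were highest in 12.2 and next highest in 12.4, above either Dicer-carrying clone. Lcn2, an iron-sequestering protein of the acute phase, read 5.56, 4.63, 9.51 and 3.62, with 2.96 and 2.81. Ptgs2, the inducible cyclooxygenase, read 8.28, 7.81, 10.41 and 6.62, with 8.29 and 8.19. For these, 12.2 was the highest of the 4 and 12.4 the lowest, each by more than 1 log2 unit from the next clone. Ccl5, Ccl7, Cxcl1 and the NF-kB subunits Nfkb2 and Relb also stood apart as high in 12.2. Cxcl12, which retains blood progenitors in the marrow, was the 1 member that stood apart as low, at 9.86, 10.58, 7.63 and 11.47, with 9.56 and 8.29.

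Among interferon-response genes, Oas2, which makes the 2-5A signal that activates RNase L, read 2.65, 2.62, 7.55 and 2.45, with 2.48 and 2.39. It passed the expression limit on the 12.2 array alone, and the other 5 arrays lay within a narrow band. Cxcl10, a chemokine for activated T cells, read 7.32, 5.57, 10.22 and 4.94, with 5.45 and 4.41. Gbp3, a guanylate-binding GTPase, read 4.10, 4.83, 7.81 and 4.87, with 3.86 and 2.84. Usp18, which removes ISG15 and restrains interferon signalling, read 6.24, 6.54, 8.91 and 5.15, with 6.70 and 3.45. Irf7, a transcription factor of the interferon response, read 5.96, 5.85, 7.90 and 4.72, with 5.74 and 4.54. These genes were highest in 12.2, and Usp18, Irf7 and the antiviral Rsad2 (6.36, 7.48, 8.44 and 4.71) stood apart as low in 12.4, the null clone nearest to the Dicer-carrying clone 12 in each. Ifit3, Oasl2, Rtp4 and Ddx58, which encodes the RNA sensor RIG-I, completed the 9 high genes.

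Promoter stretches of 4 of these genes are shown because their levels set 12.2 apart from the other clones. They are 60 bases long, on the gene's strand, from RefSeq with build GRCm38.p6, and capitals mark the motif found by a search of both strands in the 250 bases before and 50 after the start site. The interferon-stimulated response element was searched as GAAANNGAAA and the NF-kB element as GGGANTTTCC. Matches on the opposite strand read TTTC at both ends. Gbp3 and Ifit3 held 2 matches each, of which 1 is in capitals. In Gbp3 a further match overlaps it, starting at the last TTTC in capitals and running on into lower case. No printed match of one motif overlaps a match of the other.
Cxcl10 (chr5:92349068-92349127, minus strand, motif from -213): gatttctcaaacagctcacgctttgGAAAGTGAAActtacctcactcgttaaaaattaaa
Gbp3 (chr3:142559974-142560033, plus strand, motif from -45): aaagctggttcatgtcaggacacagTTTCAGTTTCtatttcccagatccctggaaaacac
Ifit3 (chr19:34583348-34583407, plus strand, motif from -156): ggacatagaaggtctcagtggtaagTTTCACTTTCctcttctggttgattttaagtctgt
Cxcl1 (chr5:90891149-90891208, plus strand, motif from -71): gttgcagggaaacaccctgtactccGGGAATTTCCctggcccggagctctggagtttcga

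The interferon element was found in 1131 of 32851 promoters in the table (3.44%) and in 182 of 5193 expressed genes with a promoter (3.50%). It was found in 8 of 121 genes that stood apart as high in 12.2 (6.61%) and in 4 of the 6 interferon-response genes among them that had a promoter, against 8 of 11 expressed interferon-response genes (72.7%). The share was 8.0% for genes high in 6.9 (6 of 75), 6.67% for genes low in 6.9 (18 of 270), 5.77% for genes low in 12.2 (9 of 156), 5.88% for genes low in 12.4 (2 of 34) and 2.40% for genes high in 12.4 (3 of 125). Among genes of 6.8 with a promoter, 0 of 15 high and 0 of 13 low ones held it. The NF-kB element was found in 135 promoters (0.411%), in 4 of the 121 genes high in 12.2 (3.31%) and in 2 of 4 chemokine and NF-kB genes among them, Cxcl1 and Nfkb2, against 4 of 8 expressed members of that list. A match describes the letters of the window and says nothing of binding.

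Clone 12.2 was low in bone genes. Of 6 expressed osteoblast genes, 4 stood apart as low and 0 as high, and the list median was 3.20 log2 units below the other clones, written -3.20. Alpl, the alkaline phosphatase of mineralising cells, read 11.07, 10.25, 5.99 and 11.52, with 11.86 and 11.94 in clones 6 and 12. Ibsp, the mineral-binding bone sialoprotein, read 8.96, 6.43, 3.08 and 8.34, with 12.10 and 12.06. Every null clone lay below both Dicer-carrying arrays for these genes, and 12.2 lay furthest below. The bone transcription factors Dlx5 (6.99, 6.11, 2.96 and 7.24, with 9.23 and 9.34) and Sp7 (6.92, 5.52, 3.95 and 7.13, with 8.63 and 8.90) had the same order at the low end. Col1a1 did not stand apart in any clone. Dmp1, a phosphoprotein of bone and dentin matrix, was instead highest in 6.9, at 4.93, 6.22, 2.86 and 3.37, with 7.57 and 7.06. Among the null arrays it passed the expression limit on 6.9 alone.

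Fat genes were low in 12.2 as well, with 3 of 5 expressed members apart as low and a median of -1.81. Pparg, the master regulator of fat cell formation, read 7.33, 7.44, 5.79 and 7.98, with 6.95 and 7.21. Cebpa, which acts with it, read 4.69, 5.66, 3.58 and 7.76, with 6.94 and 5.05, so that 12.2 was the lowest and 12.4 the highest clone. Of 11 expressed Wnt pathway genes, 4 stood apart as low in 12.2 (Sfrp1, Sfrp2, Wif1 and the receptor Ror2), with a median of -1.01. The secreted Wnt inhibitor Wif1 read 7.68, 6.62, 3.48 and 8.68, with 10.51 and 9.41. Without 12.4 that median was -0.61.

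Single genes with the lowest values in 12.2 relative to the other clones were Aldh1a2, Mest, Lrp4, Fmod, Capn6, Gprc5c and Gas6, at 4.98 to 6.00 log2 units below their mean. Aldh1a2, which makes retinoic acid, read 9.24, 9.84, 4.21 and 11.55, with 2.71 and 2.88. It was 1 of only 2 expressed retinoid pathway genes of 11 measured, nearer to the Dicer-carrying level in 12.2 and far above it in the other 3 clones. Fmod, a proteoglycan that organises collagen fibrils, read 10.72, 9.67, 4.79 and 10.35, with 8.99 and 9.0, and Lrp4, a receptor for sclerostin and agrin, 9.13, 8.29, 3.39 and 9.73, with 9.12 and 9.54. For both, the other 3 null clones and both Dicer-carrying arrays lay together and 12.2 alone was low. Collagen VI chains were low in 12.2 too, with Col6a1 at 10.46, 11.10, 9.23 and 10.96 and Col6a2 at 9.24, 10.07, 7.77 and 9.86. Of the 5 expressed imprinted genes, Mest, Peg10 and Grb10 stood apart as low, with a list median of -2.02. Peg10 read 10.49, 11.53, 8.82 and 10.50, with 8.28 and 8.08, and Mest 3.38 in 12.2, with 5.26 and 3.76. In both, the other 3 null clones lay above both Dicer-carrying arrays. Grb10 read 7.80, 7.53, 5.18 and 6.82, with 8.22 and 8.15, so every null clone lay below both arrays and 12.2 furthest.

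Gains in 12.2 outside these lists included Pdpn, a mucin-like surface protein of stromal and lymphatic cells, at 3.95, 3.26, 8.43 and 2.80, with 3.14 and 3.22. Dcn, the proteoglycan decorin, read 3.04, 2.62, 7.67 and 2.66, with 7.01 in clone 6 and 3.05 in clone 12, so the high value was found in 1 Dicer-carrying clone as well. Among the null arrays, Pdpn and Dcn passed the expression limit on 12.2 alone and so had to be highest there. Adm, the vasodilator adrenomedullin, read 2.80, 2.52, 7.20 and 3.44, with 2.70 and 3.28. Of 12 expressed hypoxia and glycolysis genes, Adm, Ndrg1 and the hexokinase Hk2 stood apart as high in 12.2, and the list median was 0.90, or 0.86 over the 11 members other than Adm, which passed the expression limit on that array alone. Of 15 expressed D cyclin and cell cycle inhibitor genes, 2 stood apart as high in 12.2 and 1 as low, with a list median of -0.15. The high ones were Ccnd2, at 5.73, 7.39, 9.28 and 7.28, and Ccnd1, at 9.92, 9.01, 10.93 and 7.86. The low one was the inhibitor Cdkn1b, at 8.87, 9.69, 7.40 and 8.51. Of 17 expressed proliferation genes, 0 stood apart in any clone.

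**Figure D2:**
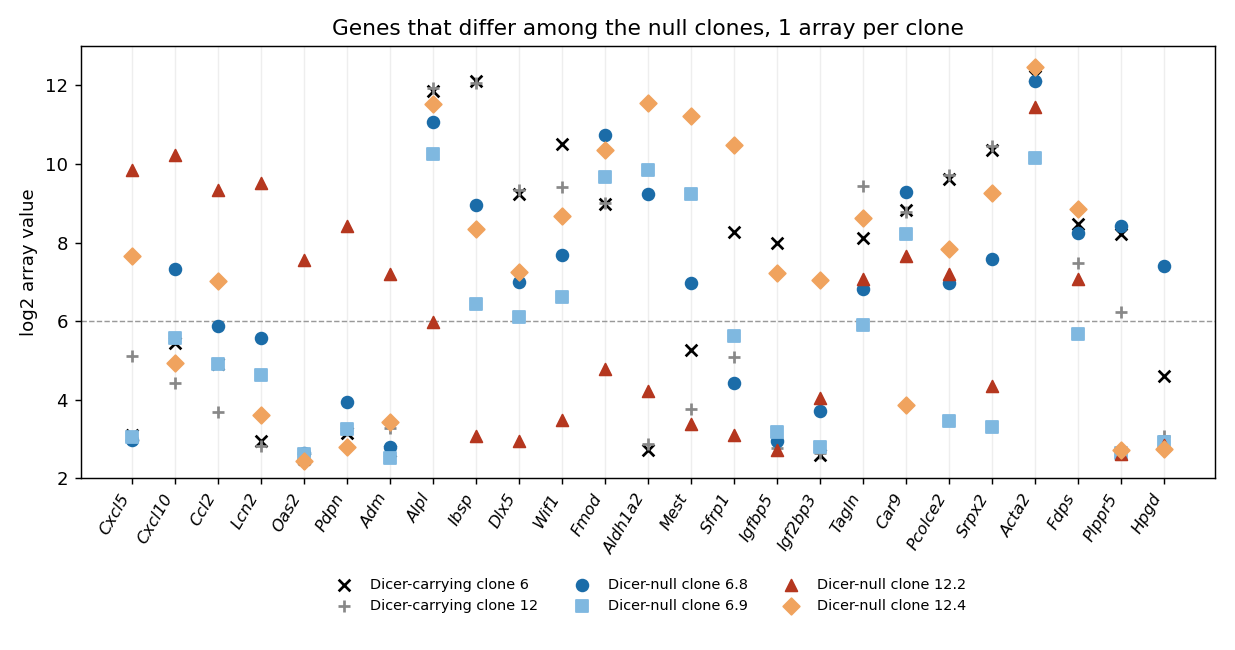
Log2 array value (vertical axis) of 25 genes described in the text, 1 point per clone, with crosses and plus signs for the Dicer-carrying clones 6 and 12 and a dashed line at the expression limit of 6. Among the null clones, triangles (12.2) are highest for Cxcl5 to Adm and lowest for Alpl to Igfbp5, and diamonds (12.4) are highest for Aldh1a2 to Tagln.

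Clone 12.4 was marked by high secreted Wnt and IGF regulators, contractile genes and basement membrane collagen. Sfrp1, a secreted Wnt antagonist, read 4.43, 5.63, 3.12 and 10.47, with 8.26 and 5.08 in clones 6 and 12. Sfrp4 read 6.90, 5.27, 5.99 and 8.83, with 6.13 and 6.23, and Rspo2, which strengthens Wnt signalling, 4.36, 4.12, 5.55 and 6.76, with 5.69 and 5.63. With Sfrp2, 4 of 11 expressed Wnt pathway genes stood apart as high in 12.4, and the list median was 1.06, or 1.91 when the expression limit was 7. Igfbp5, an IGF-binding protein, read 2.96, 3.17, 2.73 and 7.23, with 7.99 in clone 6 and 2.78 in clone 12. Igfbp4 read 5.91, 8.70, 5.82 and 10.41, with 10.95 and 9.32, and the growth factor Igf1 itself 4.70, 5.45, 3.35 and 6.77, with 4.72 and 3.70. These 3 stood apart as high among 7 expressed IGF pathway genes, whose median was 1.01. Igfbp5 and Igf1 passed the expression limit on the 12.4 array alone, and without them 1 of 5 stood apart, with a median of 0.91. Sfrp1 and Rspo2 passed it in the same way, and without them 2 of 9 Wnt pathway genes stood apart, with a median of 0.65.

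Of 9 expressed smooth muscle genes, Tagln and Myl9 stood apart as high in 12.4, with a list median of 1.22, or 0.72 without the 6.9 array. Tagln, the actin-binding transgelin, read 6.83, 5.90, 7.07 and 8.61, with 8.12 and 9.43. Myl9, a myosin regulatory light chain, read 6.86, 6.71, 6.25 and 8.28, with 9.13 and 8.89. In both genes 12.4 was the null clone nearest to the Dicer-carrying arrays. Acta2, smooth muscle actin, read 12.12, 10.16, 11.45 and 12.46, with 12.22 and 12.46, and was the gene of this list that stood apart as low in 6.9.

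The basement membrane chains Col4a1 (4.54, 5.48, 3.99 and 7.57, with 4.86 and 5.14) and Col4a2 (4.05, 5.02, 3.77 and 7.76, with 4.70 and 4.63) were gained in 12.4 and passed the expression limit there alone. Idi1 and Sqle, both of cholesterol synthesis, stood apart as high, and the median of the 11 members was 1.23. The osteoblast list had a median of 1.78 in 12.4 although 0 of 6 members stood apart there, and without 12.2 that median was 0.67. In clone 6.8 it was 1.47, and 0.45 without 12.2 or 2.32 without 12.4. The fat list had a median of 1.12 in 12.4, with Cebpa and the lipase Lpl apart as high, and 0.59 without 12.2. With an expression limit of 7 it was 3.11. Cebpa and Lpl passed the limit of 6 on the 12.4 array alone, and the other 3 members had a median of 0.53 with 0 apart as high.

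Other genes gained or high in 12.4 were the membrane protein gene Ms4a4d, the monoamine oxidase Maob, the matrix protein gene Abi3bp, kininogen (Kng1) and Mest. Of these, Ms4a4d, Maob and Kng1 passed the expression limit on the 12.4 array alone. Mest, an imprinted gene of the hydrolase fold family, read 6.97, 9.24, 3.38 and 11.21, with 5.26 and 3.76, a span of 7.84 log2 units between the 2 clones of line 12. The lowest of its 49 low genes were Car9, Kcnn4, F13a1, Lcn2, Fstl3, Gpnmb and Gprc5a. Car9, a carbonic anhydrase known for its induction in hypoxia, read 9.28, 8.21, 7.64 and 3.88, with 8.81 and 8.76, so 12.4 alone was low. Of 13 expressed stress-response genes, Chac1, Trib3 and Atf3 stood apart as low in 12.4.

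Reported let-7 targets and oncofetal genes, which the series title concerns, were uneven among the clones. Of 8 expressed members, 5 had a range of at least 1, and the median range was 1.19. Igf2bp3, an RNA-binding protein of fetal tissue, read 3.71, 2.79, 4.04 and 7.04, with 2.60 and 2.65, and was high in 12.4 alone. That was the only null array on which it passed the expression limit. Hmga2, a chromatin protein with many let-7 sites, read 6.22, 7.43, 7.31 and 4.85, with 4.01 and 4.31, and was lowest in 12.4. Igf2bp1 read 8.02, 9.34, 8.06 and 8.31, with 2.66 and 3.02, so that all null clones lay far above both Dicer-carrying arrays and 6.9 was highest. Nr6a1, the orphan nuclear receptor named in the title, read 5.50, 5.85, 5.34 and 6.11, with 3.58 and 3.30, and passed the expression limit on the 12.4 array alone. The list medians lay between -0.29 and 0.06 in the 4 clones, and that of 6.9 was -0.47 after further quantile normalisation. Among 10 expressed Argonaute and microRNA-processing genes, the exportin Xpo5 (8.15, 6.80, 8.87 and 8.40, with 8.26 and 7.97) was the one that stood apart, as low in 6.9.

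Clone 6.9 differed mainly by low values. Leaving aside predicted and unnamed genes, those furthest below the others were H2-Q7, Nid1, Ripk3, Pcolce2, Rpsa, Srpx2 and Ndufa9, at 3.33 to 4.35 log2 units below the mean of the other clones. Pcolce2, an enhancer of procollagen processing, read 6.96, 3.46, 7.20 and 7.84, with 9.62 and 9.71. Ripk3, a kinase of necroptosis, read 6.99, 3.02, 7.38 and 7.01, with 6.07 and 6.75. Ndufa9, a subunit of respiratory complex I, read 10.12, 6.62, 9.99 and 9.73, with 9.97 and 10.05. In each of the 3, the other 5 arrays lay well above 6.9. Nid1, the basement membrane protein nidogen 1, was low in line 6 and in the Dicer-carrying clones (5.56, 3.24, 8.46 and 8.65, with 5.34 and 5.14), whereas its relative Nid2 read 6.04, 8.0, 3.69 and 6.75, with 4.30 and 4.46, and was highest in 6.9. H2-Q7 and Rpsa, both low in 6.9, and Rps18 and H2bc8, both high, belong to families with near-identical copies or pseudogenes, and probes may read more than 1 copy.

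Several families chosen after seeing the values held many low genes in 6.9. Of 47 expressed cytosolic ribosomal protein genes, 10 stood apart as low (21.3%, against 5.01% of all expressed genes) and 1 as high, and the median was -0.58. Rpl4 is an example, at 12.15, 10.95, 12.23 and 12.28, with 12.49 and 12.46. Low counts were 9 of 55 for mitochondrial ribosomal proteins, 5 of 31 for complex I, 4 of 15 for cytochrome c oxidase and 4 of 33 for the proteasome, and medians ranged from -0.17 to -0.60. The medians of all 5 families stayed below 0 in 6.9 under each scaling tried. Tbp, a general transcription factor, read 7.15, 6.08, 7.89 and 7.28, with 7.46 and 7.88, whereas Actb read 12.64, 12.56, 12.84 and 12.49 and did not differ by as much as 1 log2 unit between any clones. These families, the label conflict and the wide spread of the 6.9 array occur together, and the part of RNA quality or hybridisation in them was not tested.

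The scaling between arrays mattered for 6.9. After a further quantile normalisation its median over all expressed genes was -0.25 in place of -0.02, and its genes standing apart were 58 above and 558 below, so that 9.42% were high in place of 24.4%. Relative to that median, the cytosolic ribosomal proteins at -0.67 and the proteasome at -0.61 were still lower. The same step gave -0.49 for cytochrome c oxidase and -0.46 for mitochondrial ribosomal proteins, in place of -0.17 and -0.21. In 6.8 the same step gave 23 above and 11 below, or 67.6% high in place of 52.6%.

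Cholesterol synthesis was low in 6.9, with a median of -1.02 over 11 genes and Fdps and Dhcr7 apart as low, or -0.63 without 12.4. Fdps, which makes farnesyl pyrophosphate, read 8.25, 5.68, 7.08 and 8.86, with 8.47 and 7.48. In amino acid and protein-folding stress genes, Psat1, of serine synthesis, read 9.31, 6.90, 10.11 and 10.10, with 9.67 and 9.83, and Chac1, which degrades glutathione, 7.58, 9.14, 7.62 and 6.11, with 5.79 and 5.65. Leaving aside predicted and unnamed genes, those furthest above the others in 6.9 were Fam221b, Mdfi, H2bc8, Rps18, Nid2, Dmp1 and the collagen Col8a2, at 2.47 to 3.53 log2 units above their mean. Of these, Fam221b, Dmp1 and Col8a2 passed the expression limit on the 6.9 array alone. F3, the coagulation tissue factor, was also high, at 5.77, 8.21, 5.42 and 7.19, with 4.26 and 3.97.

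Clone 6.8 lay nearest to the others, and its own genes were few. Plppr5, a brain-enriched phosphatase-related membrane protein, read 8.41, 2.63, 2.62 and 2.72, with 8.23 and 6.23, and so had been kept in 6.8 and lay near the lowest values of the array in the other null clones. Hpgd, the prostaglandin-degrading dehydrogenase, read 7.39, 2.93, 2.86 and 2.74, with 4.62 and 3.08, and was gained. Next among the 20 high genes of 6.8 came Pgm5, Pi15, Dynap, Car9 and Platr4, at 2.45 to 3.47 log2 units above the mean of the other clones. Plppr5, Hpgd, Pi15, Dynap and Platr4 passed the expression limit on the 6.8 array alone. The lowest of the 18 low genes of 6.8 were Maob, Rhbdf2, Ccnd2, Egfr, Gla, Pxdn and Bnc2. Egfr, the EGF receptor, read 4.4, 5.80, 6.32 and 7.77, with 4.39 and 4.52, so that 6.8 matched the Dicer-carrying arrays and the other 3 null clones lay above them. Gla, the lysosomal alpha-galactosidase, read 5.53, 8.55, 7.90 and 6.64, with 8.23 and 8.36, and was low in 6.8 alone by this measure.

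**Figure D3:**
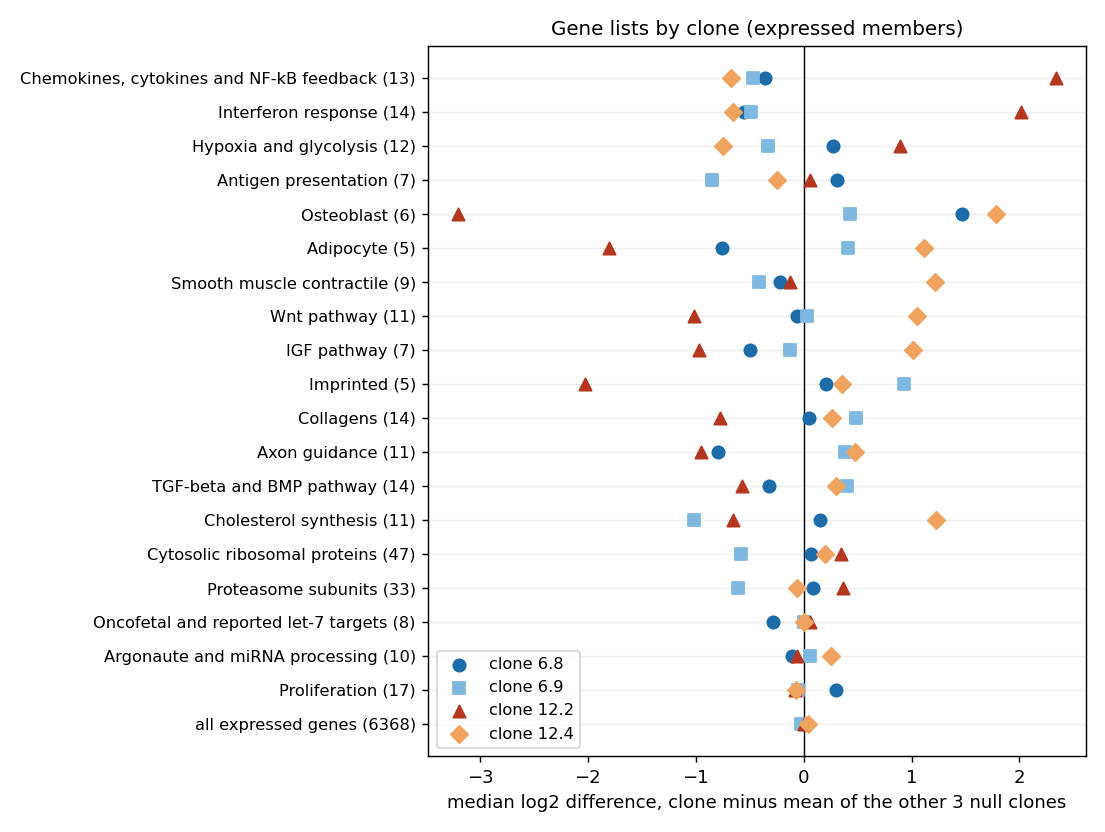
Median over a list's expressed members (number in brackets) of the clone's log2 value minus the mean of the other 3 null clones, for 20 lists including all expressed genes. Clone 12.2 lies at 2.34 and 2.02 for the first 2 lists and at -3.20 for osteoblast genes, while the proliferation list lies near 0 in all 4 clones.

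Within line 6, 616 genes were at least 1 log2 unit higher in 6.8 than in 6.9 (9.67%) and 303 lower (4.76%). Among genes with established names, the largest differences were those of Plppr5, Hpgd, H2-Q7, Srpx2 and Ripk3 on the 6.8 side, at 3.98 to 5.78 log2 units. Fam221b, Rps18, H2bc8, Chst2 and Gla were the largest on the 6.9 side. Srpx2, a secreted sushi-repeat protein, read 7.59, 3.31, 4.35 and 9.26, with 10.36 and 10.45, and split both lines, with 1 clone of each far below the other.

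Within line 12, 402 genes were higher in 12.2 than in 12.4 (6.31%) and 646 lower (10.1%). Mest, Sfrp1, Aldh1a2, Itga9 and Lrp4 were higher in 12.4 by 6.34 to 7.84 log2 units. Lcn2, Pdpn, Cxcl10, Tnfrsf9 and Oas2 were higher in 12.2 by 5.10 to 5.90. Itga9, an integrin chain that binds tenascin C, read 5.49, 6.54, 2.87 and 9.22, with 6.55 and 5.29, and Tnfrsf9, the costimulatory receptor 4-1BB, 8.19, 5.69, 10.10 and 4.91, with 4.59 and 6.04. The same clones also stood on opposite sides in the genes that stood apart in a pair of clones. Of 91 such genes, 32 were low in 12.2 and high in 12.4 and 13 the reverse.

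The lines themselves were tested, because each has 2 null clones. In limma with Benjamini-Hochberg adjustment, 0 of 18997 genes (0%) passed an adjusted p of 0.05 between the null clones of line 12 and of line 6, and the smallest adjusted p was 0.998. At an unadjusted p of 0.05, 844 genes passed. The test had 2 residual degrees of freedom, and a p above the threshold does not show that the lines are alike. By level alone, 1086 expressed genes (17.1%) were higher in both clones of line 12 than in both of line 6 and 973 (15.3%) lower. Of these, 190 and 122 had line means at least 1 log2 unit apart. These counts carry no test, and nothing is read from their size. Slc7a2, a transporter of arginine, read 3.88, 4.06, 7.48 and 7.90, with 5.85 and 6.51, a difference of 3.72 with a standard error of 0.21 (limma adjusted p = 0.998). Itm2a, a membrane protein known in developing cartilage and muscle, read 6.84, 6.03, 2.63 and 2.77, with 7.71 and 7.99, a difference of -3.74 with a standard error of 0.33 (limma adjusted p = 0.998). In these, the clones of a line lay together and the lines did not overlap. Cxcl5, Nid1, Kng1 and the haptoglobin gene Hp were the other named genes above in line 12, and Mdfi, Megf10, Car9 and Gprc5c those below. Their differences were 2.78 to 5.74 in size, with standard errors of 0.64 to 1.78. Those of Car9 and Gprc5c came mainly from 1 clone. In 12.2 and 12.4, Car9 read 7.64 and 3.88, and Gprc5c 3.84 and 8.64.

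Position in the genome, which was not used to choose genes, also separated the clones. For each of 20 chromosomes the median difference of a clone from the other 3 was taken over expressed genes, relative to the median of all genes. Of 80 such offsets, 5 exceeded 0.3 in size. Chromosome 9 was high in 12.4 by 0.59 over 308 genes. Of these, 89.3% had a difference above the clone's median over all expressed genes. The same chromosome was low in 6.9 at -0.36, or -0.20 without 12.4. Chromosome 19 was high in 12.4 by 0.35 over 249 genes. In 6.9, chromosome 10 was high by 0.37 and the X chromosome low at -0.30.

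**Figure D4:**
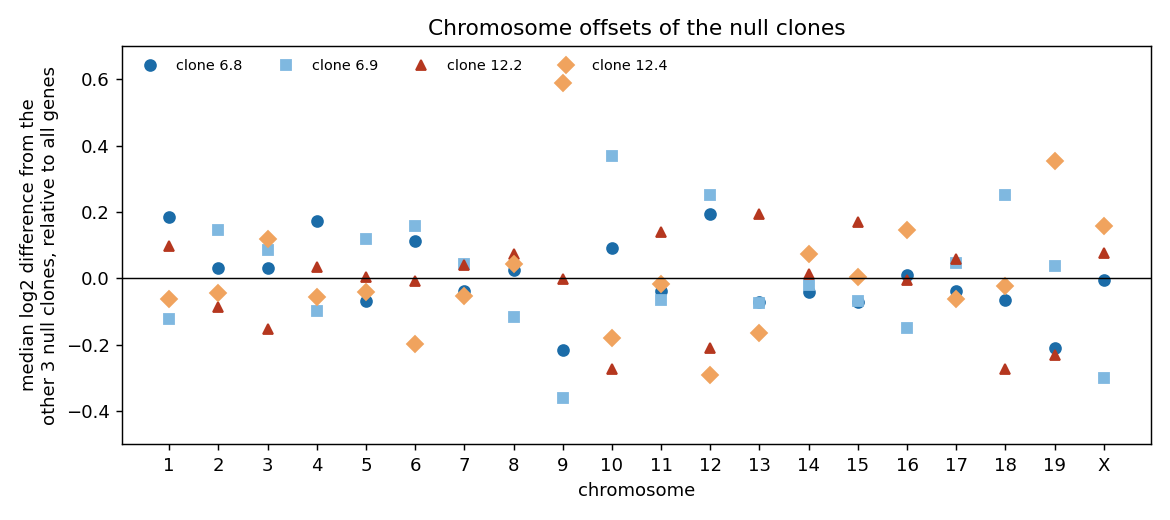
Median log2 difference of each clone from the mean of the other 3 null clones over the expressed genes of each chromosome, relative to all expressed genes. Clone 12.4 stands highest on chromosome 9 (0.59) and chromosome 19 (0.35), and clone 6.9 on chromosome 10 (0.37).

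Of 165 genes that stood apart as high in 12.4 and had a known chromosome, 28 lay on chromosome 9 (17.0%), where 4.85% of expressed genes lie. Aldh1a2 and Itga9 are on it. On another scale, against the mean of all 4 null clones, chromosome 9 was at 0.44 in 12.4. On that scale it was at 0.66 in the Dicer-carrying clone 12 and at 0.29 in clone 6. Chromosome 19 was at 0.27 in 12.4, 0.22 in clone 12 and -0.08 in clone 6. Chromosome 10 was at 0.28 in 6.9, 0.15 in clone 12 and 0.19 in clone 6. The X chromosome was at -0.23 in 6.9, 0.06 in clone 12 and 0.10 in clone 6. In 26 windows of 50 neighbouring genes along chromosome 9, taken every 10 genes, the median of 12.4 lay between 0.39 and 0.74, and over all windows it reached 0.77 between Vps26b and Sik2. In 31 such windows along chromosome 10, 6.9 lay between 0.04 and 0.68, highest between Trappc10 and Sf3a2, so the offset was uneven along it. Gene copy number was not measured by these arrays. With each chromosome centred on its own median, 195 genes stood apart in 12.4 in place of 215, and 396 in 6.9 in place of 422.

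**Figure D5:**
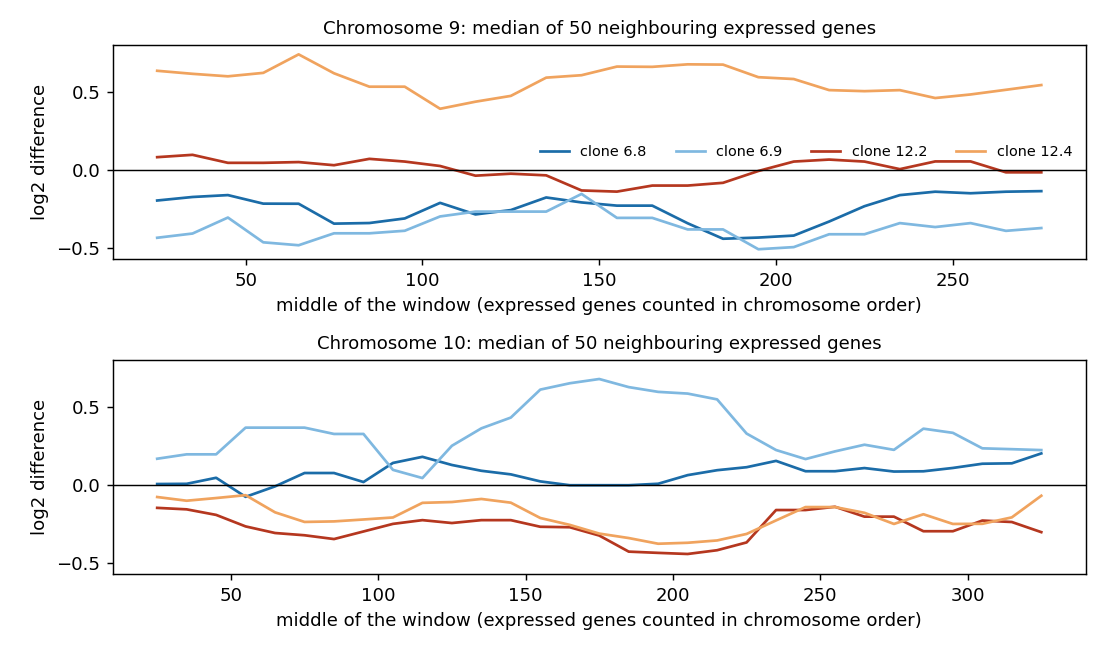
Running median over 50 neighbouring expressed genes of each clone's log2 difference from the mean of the other 3 null clones, relative to all genes, along chromosomes 9 and 10 in gene order, 1 point every 10 genes. The plotted medians of clone 12.4 lie between 0.39 and 0.74 on chromosome 9, and clone 6.9 reaches 0.68 in the middle of chromosome 10.

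Little separated the clones in some lists. The 17 proliferation genes had medians between -0.08 and 0.30, and Cdk1, which drives entry into mitosis, had the widest range, at 10.41, 8.84, 8.92 and 9.99, with 10.12 and 10.41. Xist, the RNA of the inactive X chromosome, read 10.07, 10.75, 10.20 and 10.42, with 10.49 and 9.97, and all 6 arrays lay within 1 log2 unit. The median range of the 10 Argonaute and microRNA-processing genes was 0.59, below that of all expressed genes. Of 4 expressed Hox genes, 0 stood apart in any clone, but all 4 had a range of at least 1 and their median range was 1.09. Hoxa11, a gene of the middle limb segment, read 8.41, 9.74, 7.42 and 9.24, with 9.16 and 8.08.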

How the data were processed

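The authors deposited log2 expression values for 44343 transcript clusters on 6 mouse exon arrays. Per the submitters' processing notes these were made with RMA in Partek 6.5, and the sources used here name no genome build. Arrays carry no read depth, and 1 array per clone limits the precision. Clusters with 1 gene in the platform annotation (22781) were named, with symbols updated through Entrez IDs to GRCm38.p6 (22485 matched). The 2085 clusters with several genes and 19477 unnamed ones were left out, and the brightest cluster stood for a gene.

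Counts, medians and offsets were computed as defined in the text. The lines were compared with limma 3.58.1 in R 4.3.3, and the steps were tested on simulated data. Its p-values measure the spread between the 2 clones of a line only. Named are Dicer1, the 7 highest and lowest genes standing apart per clone, the 5 largest per direction within and between lines, up to 4 members per list with the widest range, and a list's genes standing apart, with predicted and unnamed genes skipped. Genes named at a threshold or as an example beyond this rule were chosen after their values were seen. Members, lists (44, of 715 genes) and 5 added families were chosen with earlier results of these data known. Alternatives were the fold, the expression limit, scaling, cluster choice, chromosome centring, leaving out clones and, chosen after seeing the data, leaving out list members that pass the expression limit on one array alone.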

Additional observations from a re-analysis of the deposited data

Results flagged for a closer look

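With 4 clones, a clone was singled out when its gap to the nearest other clone as a share of the whole range exceeded Dixon's 95% critical value for 4 samples. This was asked of 54 values, the median levels over 33 lists and 20 chromosomes and the level of Dicer1, and chance flags about 1 in 20. All 4 flagged values were lists. Their members were chosen with earlier results of these data known, and the expression limit used the same arrays. The rate of 1 in 20 therefore need not hold for lists, and nothing is read from the number of flags. The question was not asked of single genes, which were named for their spread. Values are medians of the log2 difference from the mean of the 4 null clones. The median level of chemokine, cytokine and NF-kB feedback genes was 1.75 in clone 12.2, against -0.53 to -0.27 in the others, and 1.54 without Lcn2, which passed the expression limit there alone, with the gap still past the critical value. That of interferon-response genes was 1.51 in clone 12.2, against -0.52 to -0.35. Of its 14 genes, 7 passed the expression limit on the 12.2 array alone. Without them the level was 1.15 against -0.64 to -0.22, and the gap no longer passed, at 0.77 of the range. Smooth muscle contractile genes were at 0.88 in clone 12.4, against -0.29 to -0.10, and small proteoglycans and matrix glycoproteins at 0.59 in clone 12.4, against -0.07 to 0.01. Without Postn, which passed on the 12.4 array alone, the proteoglycan level was 0.33 and the gap no longer passed, at 0.53 of the range.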

How the results depend on the processing

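A fold of 2 log2 units left 4, 38, 94 and 45 genes standing apart in the clones, in the order 6.8 and 6.9, then 12.2 and 12.4, and 105 and 323 genes differing within line 6 and line 12. Distance from the mean of the other 3 clones alone gave 259, 998, 845 and 612. An expression limit of 7 left 23 in 6.8, and no limit gave 60 in 6.8 and 323 in 12.4. With each other clone left out in turn, which leaves fewer clones to differ from, the counts were 114 to 121 in 6.8, 568 to 640 in 6.9, 501 to 541 in 12.2 and 318 to 366 in 12.4. All other counts stayed within 1.5 times. The comparison of lines gave 0 genes in limma under all 9 alternatives, with 208 to 1492 at an unadjusted p of 0.05. Of the 19 larger list and chromosome medians that were recomputed (lists past 1, chromosomes past 0.3), none changed sign, and the moves past 1.5 times are given beside the results. Smaller medians did change sign with the scaling or cluster choice, as for matrix proteases in 12.2 (-0.24 to 0.12), imprinted genes in 6.8 (0.21 to -0.11), let-7 targets in 6.9 (0.00 to -0.47) and Argonaute genes in 6.9 (0.06 to -0.29). The cause of these moves was not tested. No paired comparison of the lines was possible, because no label matches a null clone of one line to a null clone of the other. Values below about 4 lie near background, so differences that end there are compressed.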
